A study of Mus musculus with 6 samples.

Results

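The cytosolic ribosomal protein genes, the Rpl and Rps genes that encode the proteins of the large and the small subunit of the ribosome, were compared between mouse embryonic stem (ES) cells grown with and without vitamin C. Members were the probe sets of an Affymetrix array with exactly 1 gene symbol, that symbol being Rpl or Rps followed by a digit, Rplp0, Rplp1, Rplp2 or Rpsa. S6 kinases and pseudogene symbols were left out, and each gene was read by its brightest probe set, judged by the mean of the 6 arrays. The rule gave 63 genes of 19938 tested. Of these, 56 are called core genes here, 34 of the large and 22 of the small subunit, and 7 were counted apart: the paralogues Rpl3l, Rpl7l1, Rpl10l, Rpl39l, Rps4l and Rps27l, and Rps19bp1, which is named for binding a ribosomal protein. Another 20 symbols that meet the rule, among them Rpl3, Rpl11, Rpl13a, Rpl39, Rpl22l1, Rpl36al and Rps27, stood only on probe sets that list several symbols and were not analysed here as single genes.

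All cells were of the Oct4-GiP ES line, which carries an Oct4 reporter. Every culture grew on gelatin (0.1%) in N2B27 medium with LIF (1000 U/ml), the GSK3β inhibitor CHIR99021 (3 µM) and PD0325901, which blocks MEK (1 µM). The 3 treated samples also received 200 µg/ml of vitamin C as L-ascorbic acid 2-phosphate for 72 hours, and the 3 untreated samples did not. The design text calls the replicates biological, and the line is a single genotype.

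Ribosomal proteins assemble on ribosomal RNA in the nucleolus, and each subunit takes them up in fixed proportion, so their genes are usually expressed together. Their mRNAs start with a run of pyrimidines, the 5′ terminal oligopyrimidine (5′ TOP) tract, through which mTOR signalling controls their translation. Several have paralogues that are used mainly in the germline or in muscle, and the introns of many of them hold small nucleolar RNAs (snoRNAs), which guide the chemical modification of ribosomal RNA. ES cells make ribosomes at a high rate.

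Values are log2 signals as deposited. A difference is the mean of the vitamin C arrays minus that of the untreated arrays with its standard error (SE), tested with limma, and a gene passed at a Benjamini-Hochberg adjusted p under 0.05 over all 19938 genes. Every adjusted p below is from this limma test unless another setting is named. Array medians lay between 5.52 and 5.60, and arrays of 1 group correlated at 0.995 to 0.996 over all genes. The 14 ES cell markers had a mean log2 level of 10.05 to 10.11 on all 6 arrays, 0 of them lay below the lower quartile of the arrays, and 4 were higher and 0 lower with vitamin C, among them Nanog (0.29, call lost under 5 of 16 other settings) and Zfp42 (0.30, lost under 6). Of all genes tested, 13.2% passed in either direction. Of 20 fibroblast markers, 8 were higher and 1 lower, with a mean log2 level over the list of 5.88 to 5.96 on the untreated and 6.29 to 6.32 on the vitamin C arrays, and of 15 primitive endoderm markers 4 were higher and 0 lower. In the untreated cells, 4 of the 20 fibroblast markers lay below the lower quartile of the arrays. The part of these shifts in the results below was not tested. In bulk RNA a change in the number of cells of a type and a change in RNA per cell cannot be told apart.

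The core genes stayed close together. Of the 56, 0 were higher and 1 was lower with vitamin C, while the test left 55 uncalled. Over the whole array 5.75% of genes were higher and 7.4% lower, and 13.2% passed in either direction. At an unadjusted limma p under 0.05 the count was also 1 of the 56 core genes, beside 5777 of all 19938 genes. The gene that passed was Rps23rg1, a retrogene copy of Rps23, described further down. The median log2 difference of the core genes was 0.0031 beside 0.012 over all genes, and their median difference regardless of sign was 0.023 beside 0.126 over all genes. The large-subunit genes had a median of 0.0067 with 22 positive and 12 negative differences, and the small-subunit genes had a median of -0.0060 with 10 positive and 12 negative differences. Arrays of the groups did not overlap for 12 of the 56 (21.4%), beside 35% of all genes.

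**Figure D1:**
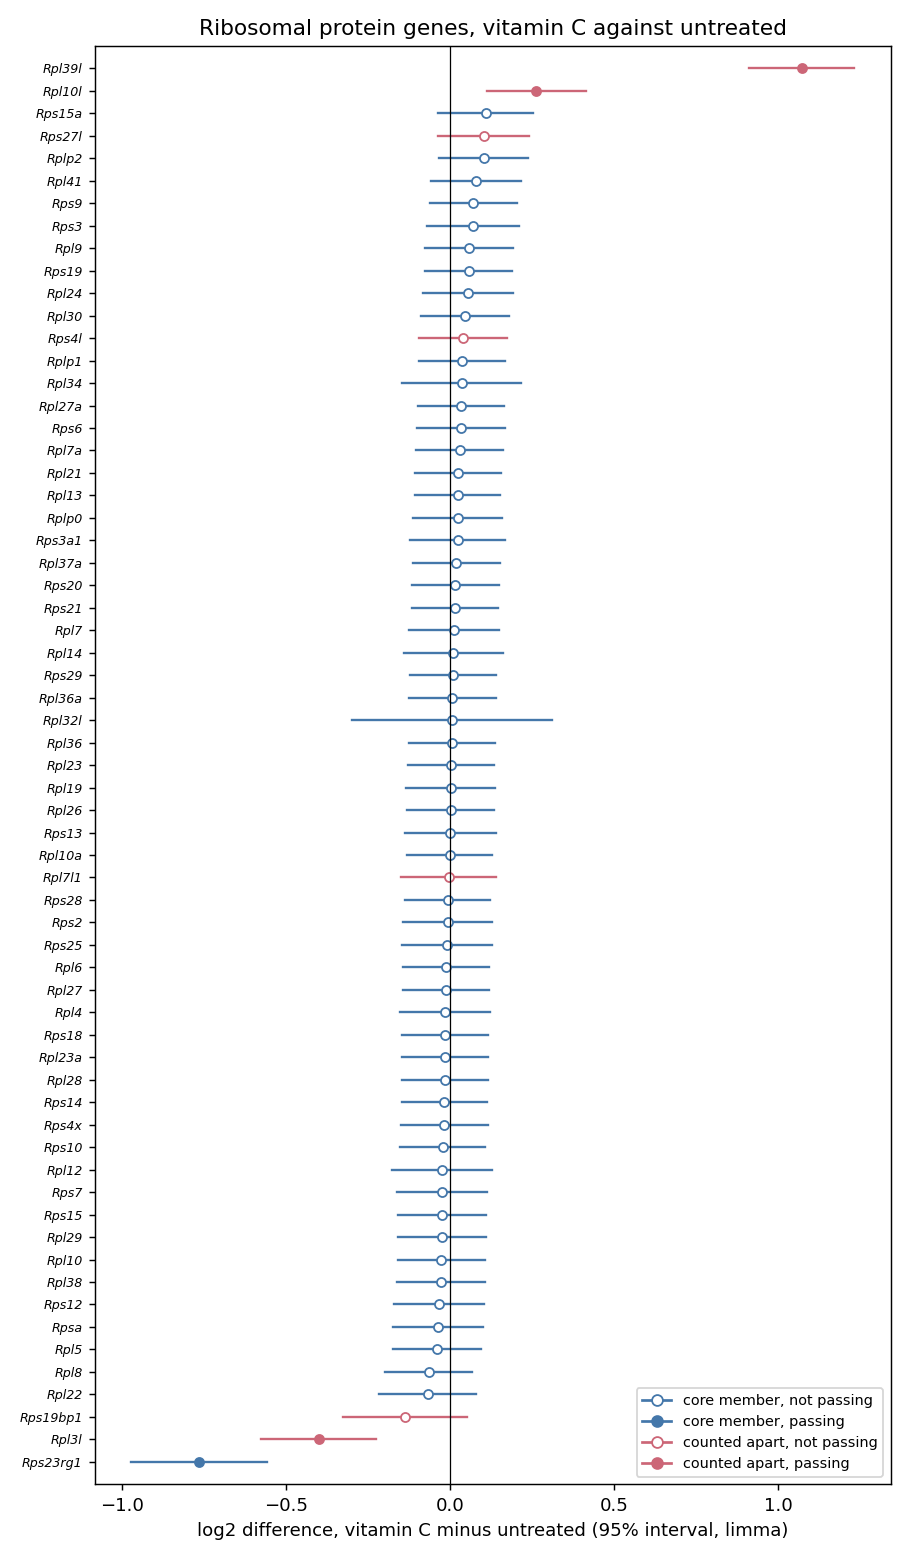
The log2 difference (vitamin C minus untreated, horizontal axis) of each of the 63 genes, with its 95% interval from limma, ordered by size; blue marks core genes, red those counted apart, and filled points passed the test. Rpl39l and Rpl10l stand at the top, Rpl3l and Rps23rg1 at the bottom, and the core genes other than Rps23rg1 lie between -0.07 and 0.11.

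Without Rps23rg1 and Rpl32l, a gene named as a copy of Rpl32, the 54 other core genes differed by -0.07 to 0.11. Their 95% intervals reached from -0.22 to 0.25, and those of 53 of the 54 lay within 0.25 of zero on either side. Under the spread model used here, the smallest difference of any gene that passed was 0.21 in size. Much of each SE, between 0.055 and 0.077 for these genes, comes from the spread that limma shares over all genes. A spread model that follows the mean signal and resists outliers gave smaller SEs for bright genes and called 20.8% of all genes. Under it 2 core genes passed as higher, Rpl41 (0.08, adjusted p = 0.018) and Rps9 (0.07, adjusted p = 0.019).

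Among the single core genes, Rplp0 encodes the base of the ribosomal stalk, which recruits translation factors. Its log2 signal was 12.05, 11.99 and 11.97 on the untreated and 12.02, 12.03 and 12.04 on the vitamin C arrays, so the groups overlapped. The difference was 0.02 ± 0.058 (SE, 95% interval -0.11 to 0.16, limma adjusted p = 0.829). Rplp1 and Rplp2 form the flexible part of the same stalk. Rplp1 read 13.32, 13.32 and 13.30 untreated and 13.35, 13.33 and 13.38 with vitamin C, a difference of 0.04 ± 0.056 (SE, limma adjusted p = 0.715). Rplp2 was dimmer and read 6.62, 6.58 and 6.65 against 6.76, 6.70 and 6.71. Its groups did not overlap, but the difference of 0.10 ± 0.059 (SE, 95% interval -0.03 to 0.24) did not pass (adjusted p = 0.295).

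Rps6 is the small-subunit protein that S6 kinases phosphorylate when mTOR is active. It read 12.58, 12.54 and 12.54 untreated and 12.61, 12.56 and 12.60 with vitamin C, with overlapping groups and a difference of 0.03 ± 0.057 (SE, adjusted p = 0.744). Rpl5 joins the 5S RNA and can bind Mdm2 when ribosome assembly is disturbed. It read 12.062, 12.004 and 11.999 against 11.987, 11.988 and 11.976, without overlap, a difference of -0.04 ± 0.057 (SE, adjusted p = 0.714) whose interval ran from -0.17 to 0.10. Rpsa, which also serves as a laminin receptor at the cell surface, read 12.72, 12.66 and 12.69 against 12.62, 12.64 and 12.69. Its groups overlapped and the difference was -0.04 ± 0.059 (SE, adjusted p = 0.737). Fau, which encodes Rps30 fused to a ubiquitin-like protein and is no member by its symbol, read 12.16, 12.15 and 12.15 against 12.19, 12.19 and 12.21, a difference of 0.04 ± 0.056 (SE, adjusted p = 0.657).

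The core genes nearest to the threshold without passing were Rps15a, Rplp2 and Rpl41. Rps15a, a small-subunit protein, read 7.78, 7.83 and 7.76 untreated and 7.96, 7.88 and 7.86 with vitamin C. The groups did not overlap, and the difference of 0.11 ± 0.062 (SE, 95% interval -0.04 to 0.25, adjusted p = 0.292) was the largest rise among the core genes. Rpl41, the smallest ribosomal protein, read 13.09, 13.04 and 13.04 against 13.18, 13.11 and 13.13, without overlap, a difference of 0.08 ± 0.059 (SE, adjusted p = 0.410). At the other end, Rpl22 read 9.87, 9.98 and 9.99 against 9.89, 9.85 and 9.89, with overlapping groups and a difference of -0.07 ± 0.063 (SE, adjusted p = 0.531).

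Most core genes sat at the top of the measured range. The mean log2 signal was 12 or more for 44 of the 56, and the highest value of any probe set was 13.93. These 44 had differences of -0.06 to 0.08, and 0 of them passed. The 47 other genes of a mean of 12 or more had a median difference regardless of sign of 0.066, beside 0.021 for the 44, and 3 of them passed (6.38%): Aldoa, a glycolytic enzyme, at -0.58, the histone gene H2bc14 at -0.26, and Cd81, a membrane tetraspanin, at 0.22. Quantile normalization, a usual step of RMA, ties the brightest probe sets of all arrays to the same values, so a shift shared by most of them would not appear. The core genes of lower signal are less bound by this. Leaving out Rps23rg1 and Rpl32l, 7 had a mean under 11 (Rplp2, Rpl12, Rpl30, Rps15a, Rpl34, Rpl22 and Rpl14), 0 of these passed, and their median difference was 0.036. Why these 7 read so far below the other core genes was not tested, so they cannot stand in for the bright ones.

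**Figure D2:**
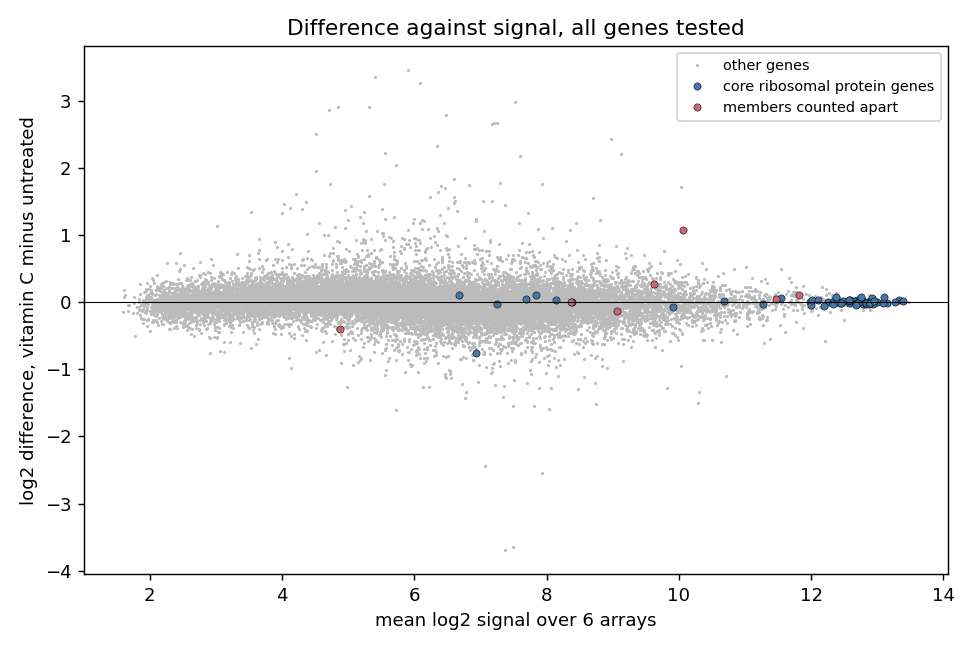
The log2 difference (vitamin C minus untreated, vertical axis) against the mean log2 signal over the 6 arrays (horizontal axis) for all 19938 genes; grey marks other genes, blue the core genes and red the members counted apart. The core genes gather above a signal of 12 next to the line at zero, where 44 of the 56 lie, and Rps23rg1, Rpl3l, Rpl10l and Rpl39l stand off it at lower signals.

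Several probe sets carry the symbol of 39 members, 219 probe sets in all, and the mouse genome holds many near-identical processed copies of these genes. Probe sets under 1 symbol may read the gene, a copy or both, and where each lies was not analysed here. The 156 probe sets that were not chosen differed by -0.07 to 0.25, and 0 of them passed when every probe set was tested (5.95% of all 35557 probe sets passed), with 1 at an unadjusted limma p under 0.05. That one was a dimmer probe set of Rpl23, at 0.25 (adjusted p = 0.092), while the chosen Rpl23 probe set was at 0.00. The 239 probe sets that list a ribosomal protein symbol beside others differed by -0.30 to 0.20, and 0 passed, again with 1 at an unadjusted p under 0.05. These 239 probe sets hold the 20 symbols that could not be read singly. In the gene-level test, 5777 of 19938 genes had an unadjusted limma p under 0.05, and the share over all probe sets is not given here.

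Within the untreated group, the core genes leaned to 1 array. Untreated replicate 1 was the highest of the 3 untreated arrays for 41 of the 56 core genes (73.2%), beside 31.9% of all genes and 24 of the 47 other genes of a mean of 12 or more. Among the vitamin C arrays, replicates 1, 2 and 3 were highest for 22, 15 and 19 core genes. The size of this shift was small, with the median core level between 12.57 and 12.62 on all 6 arrays. Without untreated replicate 1 the median difference of the core genes was 0.015 in place of 0.0031.

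**Figure D3:**
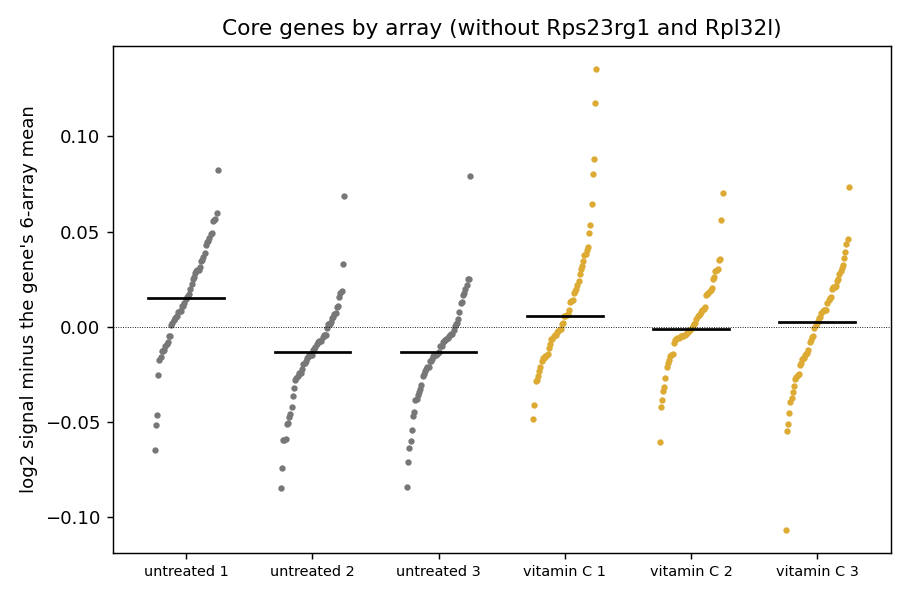
Each of the 54 core genes other than Rps23rg1 and Rpl32l as a point on each array, as its log2 signal minus its mean over the 6 arrays (vertical axis); points are sorted by size within an array and bars mark medians. Grey arrays are untreated and yellow ones vitamin C, and untreated replicate 1 lies above the other untreated arrays.

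The members counted apart behaved differently from one another. Of the 7, 2 were higher, 1 was lower and 4 did not pass, beside 5.75% higher and 7.4% lower among all genes. Rpl39l, a close relative of Rpl39 known from testis, read 9.60, 9.53 and 9.43 untreated and 10.56, 10.58 and 10.64 with vitamin C. Every treated array lay above every untreated array. The difference was 1.07 ± 0.069 (SE, 95% interval 0.91 to 1.23, limma adjusted p = 0.00024), a 2.10-fold rise. Rpl39l passed under all 16 other settings and left-out arrays, with differences of 1.03 to 1.11. Its parent Rpl39 was not analysed here as a single gene.

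Rpl10l is an autosomal, intronless copy of the X-linked Rpl10 that stands in for it in male meiosis. It read 9.55, 9.46 and 9.48 untreated and 9.81, 9.79 and 9.69 with vitamin C, without overlap. The difference was 0.26 ± 0.065 (SE, 95% interval 0.11 to 0.41, adjusted p = 0.038), a 1.20-fold rise. The call was lost without any 1 of the 6 arrays (adjusted p between 0.052 and 0.109), with the arrays centred on their medians (0.064), without moderation (0.054), with replicate numbers as a block (0.077) and with every probe set tested (0.071). Rpl10 itself read 12.83, 12.80 and 12.80 against 12.77, 12.78 and 12.80, with overlapping groups and a difference of -0.03 ± 0.056 (SE, 95% interval -0.16 to 0.11, adjusted p = 0.809). The difference between the changes of Rpl10l and Rpl10 was not tested.

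Rpl3l is the form of Rpl3 used in heart and skeletal muscle. It was dim, at 5.14, 4.97 and 5.12 untreated and 4.65, 4.77 and 4.62 with vitamin C, and the groups did not overlap. The difference was -0.40 ± 0.075 (SE, 95% interval -0.58 to -0.22, adjusted p = 0.015). The call was lost without moderation (0.054), with the replicate block (0.052), and without untreated replicate 1 (0.053), untreated replicate 3 (0.053), vitamin C replicate 1 (0.055) or vitamin C replicate 3 (0.052). The untreated mean of 5.08 was below the array medians.

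Of the paralogues that did not pass, Rps27l, a p53 target that resembles Rps27, came closest. It read 11.80, 11.77 and 11.74 untreated and 11.84, 11.87 and 11.91 with vitamin C, without overlap, and differed by 0.10 ± 0.059 (SE, adjusted p = 0.296). Under the trended and robust spread model it passed (adjusted p = 0.015). Rps4l, listed as a transcribed pseudogene in the RefSeq gene table, read 11.43, 11.43 and 11.48 against 11.49, 11.51 and 11.47, with overlapping groups and a difference of 0.04 ± 0.058 (SE, adjusted p = 0.697). Its partner Rps4x, the X-linked small-subunit gene, was at -0.02 ± 0.057 (SE, adjusted p = 0.876).

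Rpl7l1, a relative of Rpl7 found in assembling large subunits, differed by -0.00 ± 0.062 (SE, 95% interval -0.15 to 0.14, adjusted p = 0.977), and Rpl7 by 0.01 ± 0.059 (SE, adjusted p = 0.912). Rps19bp1, a nucleolar protein that binds Rps19, was at -0.14 ± 0.081 (SE, 95% interval -0.33 to 0.05, adjusted p = 0.309). Rpl36a, the partner of Rpl36al, differed by 0.01 ± 0.057 (SE, adjusted p = 0.949). For these 4 genes the untreated and vitamin C arrays overlapped.

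Rps23rg1 encodes a protein known from neurons that was formed when a processed Rps23 copy landed in another locus, and it is no ribosomal subunit gene in the narrow sense. It read 7.32, 7.22 and 7.42 untreated and 6.41, 6.60 and 6.66 with vitamin C. Every treated array was below every untreated array. The difference was -0.76 ± 0.088 (SE, 95% interval -0.97 to -0.56, limma adjusted p = 0.0024), so the untreated level was 1.70-fold that with vitamin C. It passed under all 16 other settings, with differences of -0.82 to -0.69. Rps23 was not analysed here as a single gene. Rpl32l, the other copy among the core genes, read 8.47, 8.29 and 8.37 against 8.63, 8.41 and 8.11, with a wide interval of -0.30 to 0.31.

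**Figure D4:**
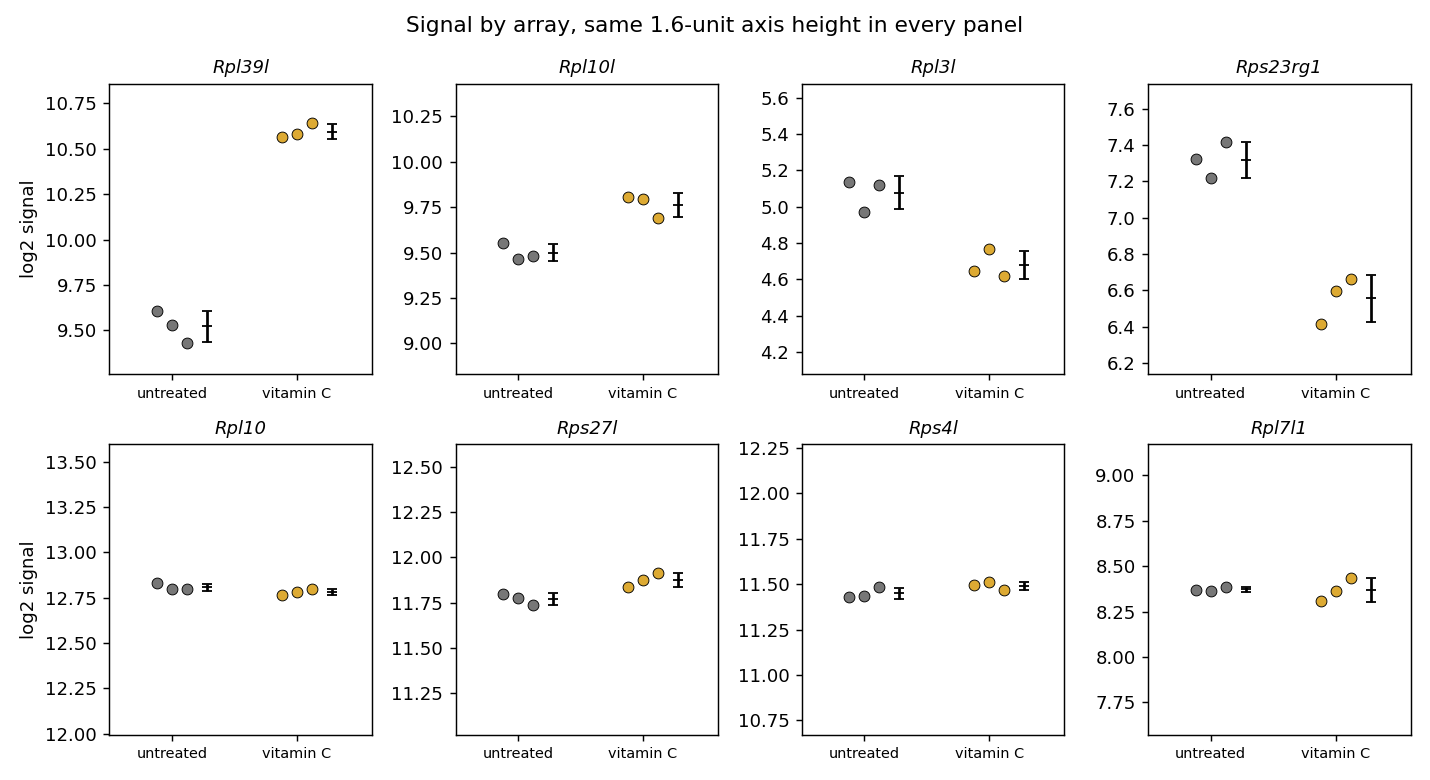
The log2 signal of 8 genes on each array (points) with the mean and SD of each group of 3 (bars), untreated in grey and vitamin C in yellow; every panel spans 1.6 log2 units, at a different level. Rpl39l and Rpl10l lie higher and Rpl3l and Rps23rg1 lower on all 3 vitamin C arrays, and Rpl10, Rps27l, Rps4l and Rpl7l1 did not pass the test.

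Promoter sequence was taken from RefSeq windows of the GRCm38.p6 build, which run from 250 bases before to 50 bases after a gene's annotated start. Of the 63 members, 51 had a window, 45 of them core genes. A tract of at least 8 pyrimidines (C or T) in a row, on the gene's strand and between 25 bases before and 50 after the start, was present in 32 of the 45 core windows (71.1%) and 3 of the 6 windows of the genes counted apart, beside 27.1% of 27025 genes and 26.5% of 17492 protein-coding genes. The following stretches of 30 bases show the tract in capitals in core genes of either subunit that did not pass, in Rps23rg1, which fell, and in Rpl39l, which rose.
Rps6, chr4:86857349-86857378, minus strand: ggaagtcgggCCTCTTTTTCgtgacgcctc
Rpl28, chr7:4792952-4792981, plus strand: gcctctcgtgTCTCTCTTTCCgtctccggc
Rpl26, chr11:68901577-68901606, plus strand: tcgcgtgtagTTCTCTTTCCTTTTgcggcc
Rpl36a, chrX:134585671-134585700, plus strand: gcggctctagCCTCTCTCTTTCCgagctgc
Rpl4, chr9:64173403-64173432, plus strand: aggagcgtggCCTTCTCCTCTCCCCgtcat
Rps23rg1, chr8:3567986-3568015, plus strand: ttgcagagagTCTTTCTCTCaccccagata
Rpl39l, chr16:10170193-10170222, plus strand: cacccactgcCTCTCCCTagctcccaggcc

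The tract of Rps6 began within 1 base of the annotated start and those of Rpl26, Rpl36a and Rpl4 further inside the window. Rps23rg1, which fell, had a tract of 10 pyrimidines, as long as that of Rps6. The tract of Rpl39l was of 8 within the searched stretch. It began at the edge of that stretch, 25 bases before the annotated start, and the base just before it is also a C, so the run is longer than marked. All of it lay before the start. Rpl10l had none between 25 bases before and 50 after its start, which says only that no such run is in that stretch. A tract was present in the searched stretch of members that rose, fell and did not pass. In Rpl39l, the only riser with one, it lay before the annotated start. Whether any of these tracts starts an mRNA, as a 5′ TOP tract does, was not tested.

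The upstream 250 bases differed in their content of CG dinucleotides, the sites at which mammalian DNA is methylated. The series title names DNA demethylation in vitamin C treated ES cells as its subject, and methylation was not analysed here. The stretches below show the CG dinucleotides in capitals for the called genes Rpl39l, Rpl10l and Rps23rg1, and for Rps6 as a core gene that did not pass.
Rpl39l, chr16:10169978-10170227, plus strand: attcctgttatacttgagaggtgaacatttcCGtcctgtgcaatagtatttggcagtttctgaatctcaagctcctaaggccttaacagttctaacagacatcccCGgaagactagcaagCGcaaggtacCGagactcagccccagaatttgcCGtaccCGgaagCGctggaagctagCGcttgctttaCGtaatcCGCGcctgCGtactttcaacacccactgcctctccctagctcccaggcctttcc
Rpl10l, chr12:66284402-66284651, minus strand: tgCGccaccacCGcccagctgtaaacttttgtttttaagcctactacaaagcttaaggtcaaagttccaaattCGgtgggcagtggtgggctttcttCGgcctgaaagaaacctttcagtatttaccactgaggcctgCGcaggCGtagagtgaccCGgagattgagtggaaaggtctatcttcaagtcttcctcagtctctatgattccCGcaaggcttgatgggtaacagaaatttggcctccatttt
Rps23rg1, chr8:3567748-3567997, plus strand: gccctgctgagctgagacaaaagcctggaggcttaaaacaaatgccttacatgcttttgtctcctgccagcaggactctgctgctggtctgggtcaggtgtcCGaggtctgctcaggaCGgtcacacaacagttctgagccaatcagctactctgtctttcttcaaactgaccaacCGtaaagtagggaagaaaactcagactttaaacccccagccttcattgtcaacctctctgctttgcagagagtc
Rps6, chr4:86857368-86857617, minus strand: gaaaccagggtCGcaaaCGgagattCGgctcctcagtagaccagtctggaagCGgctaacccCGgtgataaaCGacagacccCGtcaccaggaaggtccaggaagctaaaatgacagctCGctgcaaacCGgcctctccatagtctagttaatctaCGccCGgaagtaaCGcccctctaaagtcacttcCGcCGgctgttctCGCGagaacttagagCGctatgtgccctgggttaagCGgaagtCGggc

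Over the whole 300-base windows, the median count of CG dinucleotides was 21 in the core genes and 16.5 in the 6 others, beside 7 in all genes and 13 in protein-coding genes. Rpl39l held 17, Rpl10l 13, Rps6 23, Rps23rg1 4 and Rpl3l 2. The motif CGGAAG, searched on both strands and free to overlap a CG dinucleotide or a tract, is the core letters that ETS-family factors such as GABPA bind. It was present in 31 of the 45 core windows (68.9%), beside 17.2% of all and 21.5% of protein-coding genes. Rpl39l had it, and Rpl10l, Rpl3l and Rps23rg1 had none in these windows. A match is a description of the letters and not a binding site.

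The snoRNA genes that lie inside ribosomal protein genes were read by probe sets of their own. Placed by RefSeq gene positions without regard to strand, 21 measured snoRNA genes lay within a ribosomal protein gene, of which 3 were higher and 0 lower with vitamin C, beside 5.75% higher among all genes. The 33 other snoRNA and scaRNA genes held 2 higher and 0 lower. Which snoRNAs are named here was chosen after their values were seen. Whether these probe sets read the mature snoRNA or the intron of the host gene was not tested.

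Snora33 lies in Rps12 and belongs to the H/ACA class, which guides pseudouridylation. It read 7.67, 7.81 and 7.69 untreated and 8.49, 8.30 and 8.23 with vitamin C, without overlap, a difference of 0.61 ± 0.086 (SE, limma adjusted p = 0.0053). Rps12 differed by -0.03 (adjusted p = 0.764). Snora33 passed under all 16 other settings.

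Snord16a, of the C/D class that guides ribose methylation, lies in Rpl4. It read 7.65, 7.30 and 7.59 against 8.17, 7.93 and 8.09, a difference of 0.55 ± 0.11 (SE, adjusted p = 0.018), while Rpl4 was at -0.01 (adjusted p = 0.907). The call was lost without vitamin C replicate 1 (0.067) or replicate 3 (0.060) and without moderation (0.091). Snora3, in Rpl27a, read 9.13, 9.19 and 9.11 against 9.56, 9.34 and 9.47, a difference of 0.31 ± 0.074 (SE, adjusted p = 0.033), with Rpl27a at 0.03 (adjusted p = 0.737). It did not pass without any 1 of 5 arrays (0.067 to 0.097) but did without vitamin C replicate 2 (0.033), and it did not pass without moderation (0.079) or with the replicate block (0.078). When every probe set was tested, neither gene passed. The limma adjusted p was 0.056 for Snord16a and 0.072 for the Snora3 probe set read here. Another, dimmer Snora3 probe set differed by 0.32 (adjusted p = 0.063). Where each Snora3 probe set lies was not analysed here.

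**Figure D5:**
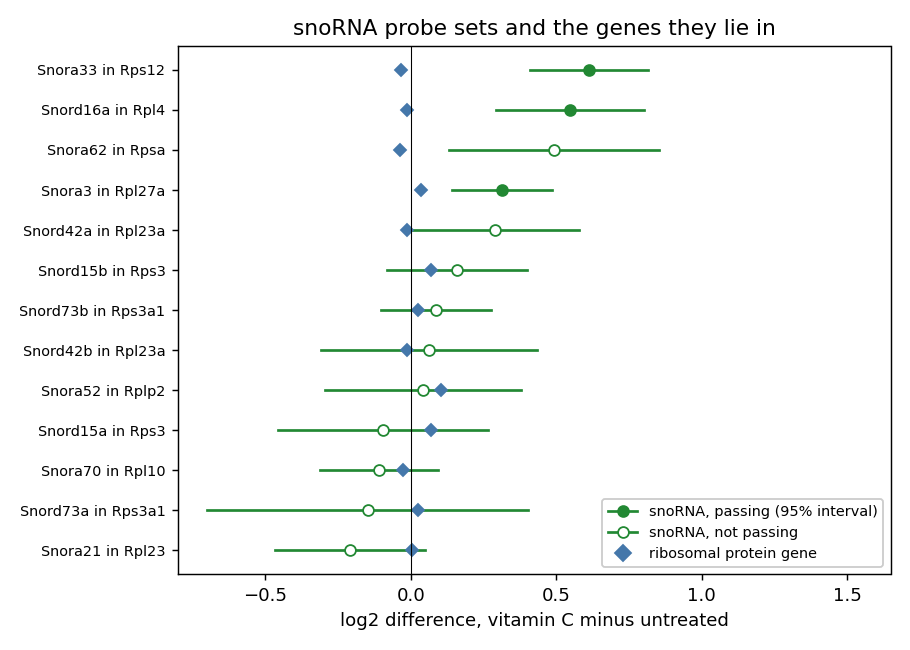
The log2 difference (vitamin C minus untreated, horizontal axis) of the 13 snoRNA genes that lie within a member, as green circles with 95% limma intervals, beside that of the gene each lies in, as blue diamonds; filled circles passed the test. Snora33, Snord16a and Snora3 lie to the right of their host genes, which are near zero.

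Other genes of the translation machinery were read from 10 lists, 218 genes together. Of these, 11 were higher and 13 lower (11.01%, beside 13.2% of all genes), with a median difference of 0.0003. Elongation and termination factors, which work on the assembled ribosome, had 0 of 16 higher and 0 of 16 lower. Of 41 initiation factors, 3 were higher and 3 lower. Eif5, which prompts the scanning 43S complex to commit at the start codon, rose from 9.41, 9.32 and 9.44 to 10.19, 10.13 and 10.14, a difference of 0.77 ± 0.062 (SE, adjusted p = 0.0006). Eif4h and Eif4b, cofactors of the helicase Eif4a, fell by 0.42 and 0.35 on the log2 scale (adjusted p = 0.0073 and 0.012), and Eif4g2, which supports initiation without the cap-binding protein, rose by 0.29 (adjusted p = 0.019). The Eif4g2 call was lost under 7 of the 16 other settings (adjusted p up to 0.067), and those of Eif5, Eif4h and Eif4b under 0.

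Of 22 other genes whose mRNAs have a 5′ TOP tract, 1 was higher and 3 were lower (18.2% in either direction, beside 13.2% of all genes). Nap1l1, a histone chaperone, rose from 10.17, 10.16 and 10.16 to 10.68, 10.63 and 10.65, a difference of 0.49 ± 0.057 (SE, adjusted p = 0.0024). Gas5, a spliced RNA that hosts snoRNAs and is degraded through translation, fell from 11.79, 11.69 and 11.63 to 11.44, 11.29 and 11.36, a difference of -0.34 ± 0.073 (SE, adjusted p = 0.024). The other falls were Eif4b and Eif2s3x (-0.28, adjusted p = 0.027). The Gas5 call was lost under 7 of the 16 other settings and the Eif2s3x call under 8.

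Genes that make ribosomes passed in both directions. Per list, 5.56% (polymerase I) to 26.3% (polymerase III) passed, beside 13.2% of all genes. For ribosomal RNA transcription by polymerase I, 1 of 18 was higher, Polr1b, the second largest subunit (0.35, adjusted p = 0.020), and 0 were lower. For polymerase III, which makes 5S RNA and tRNAs, 2 of 19 were higher and 3 lower. Polr3gl and Polr3g encode alternative forms of the same subunit, of which Polr3g is the one known from ES cells, and both fell, by 0.55 (adjusted p = 0.010) and by 0.26 (adjusted p = 0.046). Polr3f rose by 0.38 (adjusted p = 0.017) and Polr3k fell by 0.27 (adjusted p = 0.041). The snoRNP proteins had 1 of 20 higher, the C/D-class protein Nop56 (0.25, adjusted p = 0.028), and 1 lower, the pseudouridine synthase Dkc1 (-0.24, adjusted p = 0.033). Of the 16 other settings, Polr3k lost its call under 11, Polr3g under 10, Dkc1 under 9, Nop56 under 8, Polr1b and Polr3f under 5 each, and Polr3gl under 1.

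In the small-subunit processome and 40S assembly list, 2 of 42 were higher and 2 lower (9.52% in either direction, beside 13.2% of all genes). Utp4 rose by 0.47 (adjusted p = 0.0038) and Rcl1 by 0.31 (adjusted p = 0.031), while Utp14a fell by 0.38 (adjusted p = 0.0090) and Utp11 by 0.36 (adjusted p = 0.011). The Rcl1 call was lost under 10 of the 16 other settings and the calls of the other 3 under 0. In the 60S assembly and export list, 1 of 43 was higher and 3 were lower (9.3% in either direction). Mdn1, the AAA ATPase that strips assembly factors from the pre-60S particle, rose by 0.32 (adjusted p = 0.022), and Nvl, Gnl3l and Pes1, all nucleolar factors of 60S assembly, fell by 0.36, 0.36 and 0.30 (adjusted p = 0.010, 0.026 and 0.032). Nvl kept its call under all 16 other settings, while Gnl3l and Pes1 lost theirs under 8 each and Mdn1 under 6. Of 18 ribosome quality factors and ribosomal protein chaperones, 1 was higher, Nap1l1, and 0 were lower.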

How the data were processed

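Total RNA from 6 cultures was amplified, labelled with biotin and hybridised to 1-colour Affymetrix arrays, per the labels' protocols. Judged from their range, the deposited values are log2 signals. RMA is named in the submitters' processing notes, with its software, version and probe-set level not stated there. That method usually includes background correction, quantile normalization and a summary of probes, so values compare arrays within a probe set and not probe sets with one another.

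Of 35557 probe sets, the platform annotation gave 1 symbol for 21789, several for 1621 and none used here for 12147. Where a gene had several probe sets (999 genes), the brightest on average was used. With lmFit and eBayes and no covariate, limma 3.58.1 under R 4.3.3 tested 19938 genes with Benjamini-Hochberg adjustment. Groups came from sample titles. RefSeq tables (GRCm38.p6) gave the promoter windows and the ribosomal protein gene in which a snoRNA lies, and no protein sequences were used. The test was tried on simulated data for this comparison (19938 genes, 200 of them changed in each of 5 runs): 11.2% of 1.25-fold, 60.8% of 1.5-fold, 85.2% of 2-fold and 99.6% of 4-fold changes were called, and 3.17% of calls were false. The simulation changed far fewer genes than the 2623 that passed here, so its rates need not hold for the real data. The number of arrays limits the precision.

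The members and lists were chosen with earlier results of these data known. Named genes were every core gene that passed, the 3 nearest to passing, all measured paralogues and partners, Rplp0, Rps6, Rpl5, Rpsa and Fau, and up to 4 called genes of each list. Rpl22, Rplp1, Rpl32l, Rps9, Rpl23, the bright genes, marker genes, snoRNAs and the printed promoter windows other than that of Rps23rg1 were picked after their values were seen. Alternatives changed the spread model, centring, dim-gene filter, probe-set rule, array weights, threshold, members and arrays. Losses of single calls were counted over up to 16 settings at an adjusted p under 0.05, so the stricter threshold of 0.01 was not among them. Figures were drawn with matplotlib 3.10.9.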

Additional observations from a re-analysis of the deposited data

How the results depend on the processing

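The counts of core genes that passed (0 higher, 1 lower) were the same with array weights, either centring, dim genes left out, probe sets averaged or tested singly, no moderation, the trend against mean signal subtracted, an adjusted p under 0.01, members with a pseudogene symbol of the same name left out, and without each array in turn. They differed under the trended and robust spread model, with 2 higher, and, by construction, without Rpl32l and Rps23rg1 (chosen after seeing the data), with 0 lower. Leaving out each array in turn gave 0 higher and 1 lower each time, and a median core difference between -0.0046 and 0.015. The median was 0.031 with arrays centred on the brightest genes, where that of all genes was 0.040, and -0.036 centred on the array medians, where that of all genes was -0.027, so the sign of the core median depends on the centring. Same-numbered arrays deviated together at correlations of 0.052, 0.0096 and -0.024, within the -0.067 to 0.055 of differently numbered arrays. No effect shared by arrays of 1 number was thus visible, but this cannot tell whether the cultures were grown in pairs. With the replicate number as a block, 1723 genes passed in place of 2623, with 0 core genes higher, 1 lower and a core median of 0.0031. The cause of these shifts was not tested. Signal near the top of the range limits what the core genes can show.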

Other observations

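The snoRNA genes within ribosomal protein genes that did not pass spread in both directions. Snora62, within Rpsa, read 5.71, 5.55 and 6.15 untreated and 6.36, 6.39 and 6.14 with vitamin C, with a difference of 0.49 ± 0.15 (SE). Snora69, within Rpl39, read 4.89, 5.97 and 5.95 untreated and 4.93, 4.41 and 4.89 with vitamin C, with a difference of -0.86 ± 0.29 (SE). Its untreated replicate 1 lay within the vitamin C values. Of the 21 snoRNA genes within ribosomal protein genes, 12 had a positive difference, as had 35 of all 54 snoRNA and scaRNA genes measured. Of the 54, 5 were higher and 0 lower, beside 5.75% higher and 7.4% lower among all genes. The probe sets with a pseudogene symbol of a ribosomal protein gene numbered 2, and 0 of them passed in limma, with 0 at an unadjusted p under 0.05.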
